A study of Mus musculus with 6 samples.

Results

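Cytosolic ribosomal protein genes encode the proteins of the ribosome that translates nuclear messenger RNA. They were taken as every gene whose array annotation carries a systematic Rpl or Rps symbol, with the stalk genes Rplp0, Rplp1 and Rplp2 and with Rpsa. The rule found 85 probes of 56 genes among 45281 probes and 19057 annotated genes. Of these genes 33, with 52 probes, belong to the large subunit and 23, with 33 probes, to the small subunit. Fau, which the rule also names, was not analysed here. The rule used no measured value.

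Expression was measured on Illumina bead arrays in splenic follicular B cells from C57BL/6 mice with a floxed Yy1 gene (yy1 f/f), selected with an antibody to CD23. The cells of each of 3 mice were divided between mock treatment and TAT-CRE, a cell-permeable form of Cre recombinase. Both portions then grew for 72 hours in RPMI medium with LPS, IL4, OPI and 20% FBS, so mock and TAT-CRE cells share the floxed allele, the stimulus and the mouse, and differ in the TAT-CRE treatment. Each treatment has 3 arrays, 1 per mouse. TAT-CRE on cells with an unfloxed Yy1 gene was not analysed here, so exposure to the protein and loss of Yy1 cannot be told apart. In a cell population, fewer cells of a type and less RNA per cell cannot be told apart either.

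The ribosome has a small subunit that reads the messenger RNA and a large subunit that joins amino acids. Messenger RNAs of ribosomal proteins begin with a run of pyrimidines, the terminal oligopyrimidine (TOP) tract, through which mTOR signalling controls their translation. YY1, the zinc finger factor whose gene is floxed here, was known in early work as the delta factor that binds the mouse Rpl30 and Rpl32 promoters. Stimulated B cells make many ribosomes as they grow and divide. Ribosomal protein genes have many processed pseudogenes with nearly the same sequence, so which transcripts a probe reads is uncertain for all of the genes below.

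On the deposited intensity scale, the Yy1 probe read 455, 409 and 439 in mock cells of mice 1, 2 and 3 and 153, 140.4 and 134 in TAT-CRE cells. The groups did not overlap, and the probe was above background on none of the 3 TAT-CRE arrays, so on the deposited scale Yy1 was at least 2.49-fold higher in mock cells, a bound set by the dimmest signal above background (limma adjusted p = 1.80e-07). Of 19240 probes tested, 1261 were higher and 1374 lower, and the median log2 difference over all of them was 0.01. Log2 values correlated across probes with r between 0.989 and 0.990 within TAT-CRE, between 0.974 and 0.983 within mock and between 0.964 and 0.975 across the groups. The labelled cell type was checked against 6 B cell genes on the array, of which 5 (Cd22, Cd74, Cd79b, Fcer2a, which encodes CD23, and Ms4a1) were above background and Cr2 was not. Of 11 tested B cell marker probes 2 were lower, 1 of 3 for Cd74 (-0.98) and 1 of 3 for Fcer2a (-0.58), against 7.14% of all tested probes. None was called higher, but Cd79b (0.52 and 0.50) and Ms4a1 (0.51) went the other way. Before adjustment, 3 of the 11 were higher and 2 lower at p under 0.05 (limma), against 13.2% and 14.0% of all tested probes. The summed intensity of the B cell marker probes ranged from 166059 to 193814 in mock and from 179031 to 190402 in TAT-CRE cells. Summed intensities of 10 T cell probes overlapped between groups (6271 to 7729 and 5549 to 8027), with Cd3d, Cd3e, Cd3g and Cd8a at background on every array, Cd4 above it on 4 arrays at 1 probe, and Thy1 above it on all 6 at 1 probe (-0.17), which held most of the sum. Those of 11 monocyte and macrophage probes were 1669 to 1736 in mock and 1764 to 1856 in TAT-CRE, with Cd14, Fcgr1 and Itgam at background on every array and Adgre1 above it on 6 and 5 arrays at 2 probes (0.32 and 0.44). Those of 3 erythroid probes were 460 to 495 and 508 to 607, with Alas2 and Klf1 at background and Hba-a1 above it on 5 arrays (0.53). The monocyte and erythroid sums did not overlap between groups. None of the T cell, monocyte or erythroid probes was called. The part of these markers in the results below was not tested.

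Ribosomal protein genes of the large subunit were higher in TAT-CRE than in mock cells at 15 probes of 9 genes, and none was lower. The 9 genes were Rplp0, Rpl14, Rpl17, Rpl21, Rpl23, Rpl24, Rpl27a, Rpl28 and Rpl31. No small subunit probe passed the test in either direction. All 56 genes had at least 1 probe that passed the filter on dim probes, 80 probes in all, of which 76 were above background on all 6 arrays. The test was a fit in limma paired by mouse, with Benjamini-Hochberg adjustment over all probes and a threshold of 0.05.

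In the large subunit 15 of 49 tested probes were called higher (limma, adjusted p under 0.05), against 6.55% of all tested probes. Before adjustment, 17 large subunit probes were higher and 0 lower at p under 0.05, against 13.2% and 14.0% of all tested probes. In the small subunit 0 of 31 were called, and before adjustment 2 were higher and 1 lower at p under 0.05, while 7.14% of all tested probes were called lower. The median log2 difference was 0.24 for large subunit probes (0.19, 0.35 and 0.22 in mice 1, 2 and 3) and 0.07 for small subunit probes (-0.0048, 0.08 and 0.13). Without mouse 2 the large subunit median was 0.12. All TAT-CRE arrays lay above all mock arrays at 19 large subunit and 5 small subunit probes, against 16.4% of all tested probes, and all lay below at 0 and 2, against 15.5%. Whether the subunits differ was not tested. A probe that passes the filter through the group where it is brighter tends to differ, and with only probes above background on all 6 arrays 14 member probes were called higher, 13 of them among the 15. With no filter 6 of the 15 kept their call, both probes of Rplp0 and 1 each of Rpl14, Rpl23, Rpl28 and Rpl31, and the others had adjusted p from 0.0514 to 0.135. In that setting 1.10% of all probes were called higher.

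**Figure D1:**
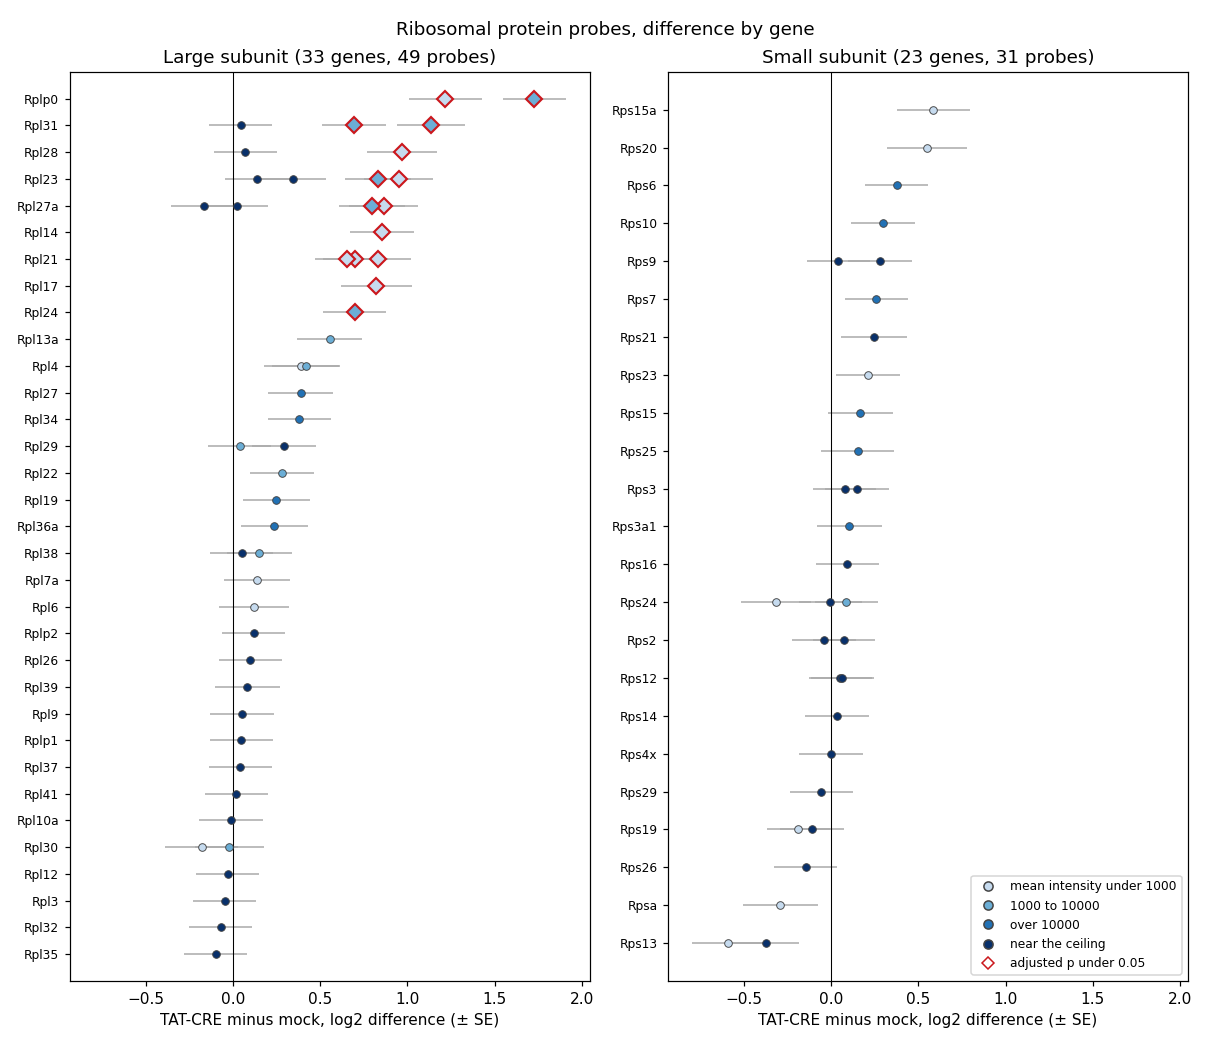
Log2 difference, TAT-CRE minus mock, of each tested probe (point, with its SE) by gene, for 33 large subunit genes on the left and 23 small subunit genes on the right. Red diamonds mark the 15 probes with an adjusted p under 0.05, all in the large subunit and all under a mean intensity of 10000, and fill colour gives the brightness class, in which all probes of 10000 and over lie between -0.38 and 0.39.

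The highest rises were in the ribosomal stalk, the flexible arm of the large subunit that recruits elongation factors and is built from Rplp0 at its base with Rplp1 and Rplp2 bound to it. The brighter Rplp0 probe (ILMN_2744356) read 2044, 1943 and 2423 in mock and 6990.2, 6475 and 7031 in TAT-CRE cells. Every TAT-CRE array was far above every mock array, a 3.31-fold difference (log2 1.73, 95% confidence interval 1.34 to 2.11, limma adjusted p = 9.98e-06), and the rise was 1.82, 1.79 and 1.57 in mice 1, 2 and 3. The second Rplp0 probe (ILMN_1249815) read 624, 356 and 492 in mock and 942, 952 and 1054 in TAT-CRE cells, again without overlap (log2 1.22, SE 0.21, adjusted p = 0.000830). The other stalk genes were read by probes near the upper end of the scale. Rplp1 read 67768, 69563 and 64574 in mock and 70047, 69292 and 69335 in TAT-CRE cells, and the groups overlapped (log2 0.05, 95% confidence interval -0.33 to 0.43). Rplp2 read 46847, 42447 and 50555 in mock and 50700.0, 49722 and 50988 in TAT-CRE cells, also with overlap (log2 0.12, interval -0.26 to 0.50). A second, dim Rplp2 probe was above background on no array.

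Rpl31, Rpl28, Rpl27a and Rpl23 had several probes that did not give the same answer. Rpl31, which sits near the exit of the peptide tunnel, was read by 3 probes. ILMN_1221124 read 2708, 3989 and 4421 in mock and 7736, 7761 and 8064 in TAT-CRE cells, without overlap (log2 1.14, SE 0.19, limma adjusted p = 0.000841). ILMN_3073486 read 5883, 4876 and 5437 in mock and 9325, 8757 and 7919.7 in TAT-CRE cells, without overlap (log2 0.69, SE 0.18, adjusted p = 0.0174, and 0.0576 and 0.0597 without mouse 2 or 3). The third and brightest Rpl31 probe read 41172, 48387 and 48604 in mock and 47715, 47715 and 46585 in TAT-CRE cells, with overlap (log2 0.04, 95% confidence interval -0.34 to 0.43).

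For Rpl28, a large subunit protein with no counterpart in budding yeast, the dimmer probe read 514, 494 and 667 in mock and 1062, 1046 and 881 in TAT-CRE cells. The groups did not overlap (log2 0.97, SE 0.20, limma adjusted p = 0.00378). Its bright probe read 50555, 51560 and 52075 in mock and 50988, 53068 and 57941 in TAT-CRE cells and did not separate them (log2 0.07, 95% confidence interval -0.31 to 0.45). Rpl27a had 4 tested probes. ILMN_2882059 read 2850.2, 3973 and 3093 in mock and 5643, 5579 and 5627 in TAT-CRE cells (log2 0.80, adjusted p = 0.00889, and 0.0648 without mouse 3). ILMN_1221403 read 366, 247 and 279.7 in mock and 454, 460.4 and 451 in TAT-CRE cells (log2 0.86, adjusted p = 0.00794). Neither pair of groups overlapped, while the brighter Rpl27a probes differed by -0.17 and 0.02 with intervals of -0.57 to 0.23 and -0.36 to 0.40.

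Rpl23 lies at the interface with the small subunit and can bind MDM2, the ligase that degrades p53. Its dimmest probe (ILMN_2685675) read 433, 344 and 464 in mock and 702, 746 and 667 in TAT-CRE cells, without overlap (log2 0.95, SE 0.20, limma adjusted p = 0.00367). The next (ILMN_1238227) read 1861, 1225 and 1547 in mock and 2678, 2577 and 2636 in TAT-CRE cells, without overlap (log2 0.83, SE 0.19, adjusted p = 0.00741). Of the 2 bright probes, 1 differed by 0.34 with no overlap (adjusted p = 0.256, and 0.0412 with an intensity trend in the variance model). The other differed by 0.14 with overlap (adjusted p = 0.676).

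**Figure D2:**
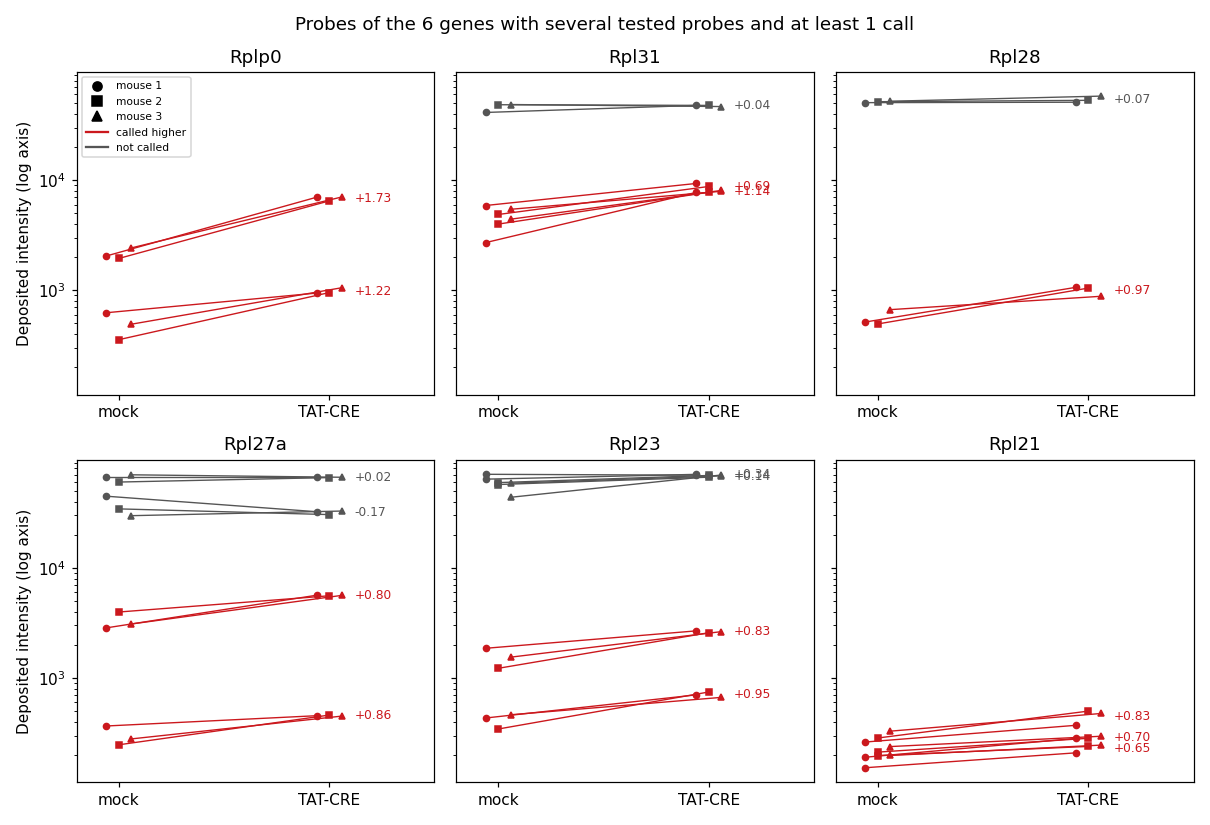
Deposited intensity (log axis) in mock and TAT-CRE cells of each mouse, joined by lines, for every tested probe of the 6 genes with several tested probes and at least 1 call, with the log2 difference beside each probe. Red lines, called higher, climb in all 3 mice, while grey lines, not called, lie near the top of the scale with log2 differences from -0.17 to 0.34.

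The remaining genes called higher had no probe in that bright range. All 3 Rpl21 probes were dim and all were called. The brightest of them (ILMN_1225201) read 262, 285 and 329 in mock and 372, 500.4 and 476 in TAT-CRE cells, without overlap (log2 0.83, SE 0.18, limma adjusted p = 0.00621). The others differed by 0.70 and 0.65 (adjusted p = 0.0179 and 0.0266), and both calls were lost without mouse 1 (adjusted p = 0.110 and 0.176), the second also without mouse 3 (0.0870) and without pairing (0.0807). Without background correction these differences were 0.43 and 0.34, and the second call was lost (0.0902). Rpl14 read 346, 275 and 382 in mock and 547, 451 and 576 in TAT-CRE cells, without overlap (log2 0.85, SE 0.18, adjusted p = 0.00450). Without background correction the difference was 0.66 for Rpl14 and 0.62 for the brightest Rpl21 probe. Rpl24, which bridges the subunits and is the gene of the Belly spot and tail mouse mutant, read 1905, 1655 and 1719.7 in mock and 2983, 2644 and 2762 in TAT-CRE cells. Its groups were well apart (log2 0.70, SE 0.18, adjusted p = 0.0155), and the call was lost without mouse 3 (adjusted p = 0.101).

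Rpl17, which lines the tunnel exit, was at the edge of detection, above background on 1 mock and 2 TAT-CRE arrays. It read 135, 127 and 182 in mock and 172, 177 and 201 in TAT-CRE cells, and the groups overlapped, since mock 3 lay above TAT-CRE 1 and 2. Its log2 difference of 0.82 (limma adjusted p = 0.0130) was 0.32 on the deposited values without background correction, and the call was lost there (adjusted p = 0.126), without pairing (0.0876) and without mouse 2 (0.0698). Rpl13a, which has a second role in silencing interferon-induced messages in macrophages, read 7207, 7405 and 5851 in mock and 9624, 9530.2 and 10622 in TAT-CRE cells. The groups did not overlap, and the log2 difference of 0.55 narrowly missed the threshold (95% confidence interval 0.16 to 0.95, adjusted p = 0.0603). Under 8 of 12 alternatives it passed, among them the fit without pairing (adjusted p = 0.0496).

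The promoters of the genes called higher are shown because YY1, whose gene is floxed here, was known to bind the mouse Rpl30 and Rpl32 promoters. RefSeq windows of 300 bases, 250 before and 50 after each annotated start (GRCm38.p6), were matched by gene identifier to 46 of the 56 genes and to 7 of the 9 called genes. The called genes Rpl17 and Rpl21 had no window, nor did Rpl30 and Rpl32, so their promoters are not in the shares below. The 130 bases printed run from 100 before the start to 30 bases into the transcript, 5′ to 3′ on the coding strand. Capitals mark AANATGGC, a YY1-like motif, or CCGGAAG, a motif of ETS factors such as GABP, on either strand. The windows lie at chr5:115559367-115559496 (plus strand) for Rplp0, chr9:120571417-120571546 (plus strand) for Rpl14, chr11:97782410-97782539 (minus strand) for Rpl23, chr16:55966175-55966304 (plus strand) for Rpl24, chr7:109519095-109519224 (plus strand) for Rpl27a, chr7:4792865-4792994 (plus strand) for Rpl28 and chr1:39367751-39367880 (plus strand) for Rpl31.
Rplp0: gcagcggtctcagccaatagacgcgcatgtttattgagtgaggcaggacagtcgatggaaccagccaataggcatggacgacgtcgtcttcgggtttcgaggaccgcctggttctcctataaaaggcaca
Rpl14: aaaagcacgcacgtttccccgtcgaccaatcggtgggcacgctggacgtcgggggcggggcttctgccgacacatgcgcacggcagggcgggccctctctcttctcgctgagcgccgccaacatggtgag
Rpl23: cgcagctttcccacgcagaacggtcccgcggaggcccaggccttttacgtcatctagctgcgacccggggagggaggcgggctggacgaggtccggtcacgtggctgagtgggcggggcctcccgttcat
Rpl24: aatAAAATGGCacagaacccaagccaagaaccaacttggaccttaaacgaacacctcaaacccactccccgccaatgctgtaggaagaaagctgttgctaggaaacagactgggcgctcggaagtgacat
Rpl27a: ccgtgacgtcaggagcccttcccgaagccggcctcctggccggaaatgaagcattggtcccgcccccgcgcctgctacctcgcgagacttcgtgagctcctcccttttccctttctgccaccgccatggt
Rpl28: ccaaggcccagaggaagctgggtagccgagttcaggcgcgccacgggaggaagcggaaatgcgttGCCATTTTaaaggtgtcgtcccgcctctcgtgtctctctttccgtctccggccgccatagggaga
Rpl31: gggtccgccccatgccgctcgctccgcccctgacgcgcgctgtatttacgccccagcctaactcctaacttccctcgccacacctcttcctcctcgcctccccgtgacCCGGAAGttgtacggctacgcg

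The YY1-like motif lay at positions -97 to -90 of Rpl24 and, on the other strand, at -35 to -28 of Rpl28, where the first transcribed base is +1. It was found in 2 of the 7 windows of called genes, in 9 of 54 member windows (16.7%) and in 6.05% of all 32851 windows, and for windows of the large and small subunit in 6 of 30 and 3 of 24. The ETS-like motif was in 22 of 54 member windows (40.7%) and in 8.86% of all windows, the Sp1-like GGGCGG in 34 (63%) and 35.7%, and TATAAA in 5 (9.26%) and 13.6%. These motifs were searched on both strands and none of their matches is a measured binding site. The shares count windows, not genes, and windows of 1 gene can overlap. The YY1-like sites of Rpl34 and Rps19 and the ETS-like sites of Rps21 were therefore counted more than once. A run of at least 6 pyrimidines covered the annotated start in 15 member windows (27.8%) against 7.25% of all windows. Such runs were 14 bases long at Rpl14, 20 at Rpl27a, 11 at Rpl28 and 7 at Rpl31. Rplp0, Rpl23 and Rpl24 had none of at least 6 bases over the annotated start. The count depends on that start, since different annotated starts gave runs of 20 and 0 bases at Rpl34 and of 9 and 0 at Rps24. At Rplp0 the motif TATAAA lay at positions 18 to 23, after the annotated start. Whether the transcripts of Rplp0, Rpl23 and Rpl24 begin with a pyrimidine tract was not tested.

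The classic YY1 targets Rpl30 and Rpl32 did not pass the test. The brighter Rpl30 probe read 7245, 4415 and 5362 in mock and 5415, 5707 and 5317 in TAT-CRE cells, and the mock arrays spanned the TAT-CRE arrays (log2 -0.02, 95% confidence interval -0.44 to 0.39, limma adjusted p = 0.963). The dimmer Rpl30 probe differed by -0.18 (interval -0.62 to 0.26). Rpl32 was read by 1 probe near the top of the scale, at 64198, 62485 and 67534 in mock and 62301, 62485 and 60186 in TAT-CRE cells, with overlap (log2 -0.07, interval -0.45 to 0.31). The Rpl30 probes were far from the upper end of the scale. The Rpl32 probe was near it, so a large rise could not be read there, and how well a fall would be read was not tested.

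Brightness went with the calls. The deposited table carries no saturation flag, so a probe was taken as near the ceiling where its highest intensity was at least 0.5 of the highest on that array, 71566 on every array. Of the 85 member probes 37 were near the ceiling, 20 of the large and 17 of the small subunit, among 189 such probes on the whole array. Members made up 26 of the 100 brightest probes. None of the 37 was called (limma, adjusted p under 0.05), and at an unadjusted p under 0.05 there were 0 as well, while 1.06% of all probes near the ceiling were called higher and 3.17% lower. Their median log2 difference was 0.04. A further 10 probes over 10000 but short of the ceiling had 0 calls and a median of 0.25, with all 10 differences above 0, where 2.87% of all probes in that range were called higher and 3.39% lower. With an intensity trend in the variance model, a near-ceiling Rpl23 probe was called higher (0.34, limma adjusted p = 0.0412). Probes over 10000 of Rpl34 (0.38, adjusted p = 0.0372) and Rps6 (0.38, adjusted p = 0.0326) were called there too. The lack of calls among bright probes thus depends on the variance model.

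Under a mean intensity of 10000, 15 of 25 tested large subunit probes were called higher, with a median log2 difference of 0.70, against 6.69% of all tested probes in that range. By class, 9 of 13 large subunit probes under 1000 were higher (6.74% of all probes there), as were 6 of 12 from 1000 to 10000 (6.54%), and none was lower (7.25% and 7.28% of all probes). None of 8 small subunit probes in the range was called, and their median was -0.05. The limits of 1000 and 10000 were set after the values were seen. Of 17 member genes with several tested probes, 6 had a called probe and 4 of these also had a probe near the ceiling that was not called. The part that the upper limit of the scale takes in this split was not tested. Brightness of different probes is not a level of their transcripts, and no probe was ranked against another as expression.

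**Figure D3:**
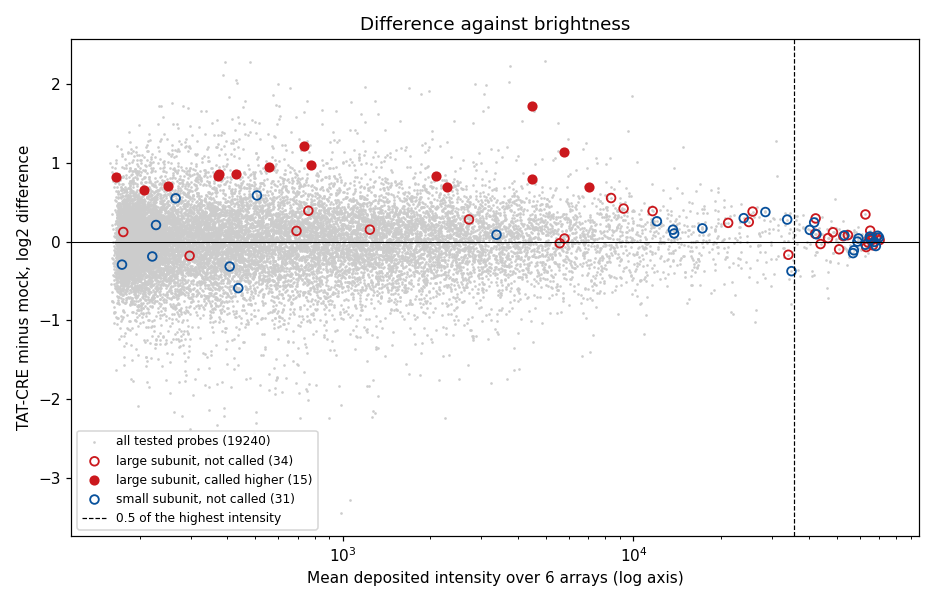
Log2 difference, TAT-CRE minus mock, against mean deposited intensity (log axis) for all 19240 tested probes in grey, large subunit probes in red and small subunit probes in blue, with filled points called higher. The 15 filled points lie between 0.65 and 1.73 at intensities under 10000, and the member points right of the dashed line, 0.5 of the highest intensity, lie between -0.15 and 0.34.

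Within the small subunit the differences ran from -0.59 to 0.59, and none passed. Rps15a read 475, 360.3 and 433 in mock and 474, 646 and 652 in TAT-CRE cells, higher in mice 2 and 3 and level in mouse 1 (log2 0.59, limma adjusted p = 0.0737, and 0.00566 without mouse 1). Rps20, a protein of the subunit head, read 272, 203 and 225 in mock and 243, 322 and 331 in TAT-CRE cells, with overlap (log2 0.55, adjusted p = 0.125, and 0.00225 without mouse 1). Rps13, which binds the central domain of the small subunit RNA, went the other way. Its dimmer probe read 388, 486 and 663 in mock and 365, 373 and 347 in TAT-CRE cells, with no overlap (log2 -0.59, adjusted p = 0.0702), and passed as lower without mouse 1 or mouse 2 (adjusted p = 0.0105 and 0.0439). The bright Rps13 probe read 45137, 34612 and 38711 in mock and 26583, 33792 and 30873 in TAT-CRE cells, also with no overlap (log2 -0.38, adjusted p = 0.225).

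Rps19 and Rps24, which in humans are mutated in Diamond-Blackfan anaemia, did not pass at any probe. The dim Rps19 probe read 209, 233 and 247 in mock and 192, 229 and 218 in TAT-CRE cells, with overlap (log2 -0.19, 95% confidence interval -0.57 to 0.19, limma adjusted p = 0.549), and the bright one differed by -0.11. The dimmest tested Rps24 probe differed by -0.32 and the others by 0.09 and -0.0043. Rps3, at the channel where messenger RNA enters, differed by 0.15 and 0.08 at its bright probes, with intervals of -0.24 to 0.53 and -0.30 to 0.46.

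Rps6, whose phosphorylation by S6 kinase is a standard readout of mTOR signalling, read 24012, 25551 and 24718 in mock and 30762, 33667 and 31874 in TAT-CRE cells. Its groups did not overlap and the difference was alike in the 3 mice, at 0.36, 0.40 and 0.37, but it did not pass (log2 0.38, 95% confidence interval -0.0043 to 0.75, limma adjusted p = 0.189). Rpsa, which is also known as the laminin receptor, was above background on 3 of 6 arrays at 1 probe (log2 -0.29, adjusted p = 0.416) and on none at the other. Of the 4 other member probes outside the test, 2 were dim Rpl37 probes above background on 2 arrays each, 1 was the dim Rplp2 probe and 1 was a probe of Rps24.

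The spread of the members was wider among mock than among TAT-CRE arrays. The median SD per probe was 0.18 in mock and 0.07 in TAT-CRE for the members, against 0.23 and 0.15 over all tested probes. For the 25 large subunit probes under 10000, the median deviation from the mean of the 6 arrays was -0.24, -0.44 and -0.16 in mock 1, 2 and 3 and 0.23, 0.32 and 0.38 in TAT-CRE 1, 2 and 3. For the 8 small subunit probes in that range it was 0.04, -0.14 and -0.02 in mock and -0.17, 0.10 and 0.02 in TAT-CRE. Among probes of 10000 and over the deviations were smaller, at -0.02, -0.04 and -0.0050 in mock and 0.02, 0.03 and 0.02 in TAT-CRE for 24 large subunit probes, and at 0.02, -0.05 and -0.07 in mock and 0.05, 0.03 and 0.05 in TAT-CRE for 23 small subunit probes. These medians separated the groups in both large subunit classes and in the brighter small subunit class, and overlapped in the dimmer small subunit class. The dimmer large subunit class holds every member probe called higher, and the limit of 10000 was set after the values were seen. The separation in that class therefore restates those calls. In the brighter classes it rests on small deviations, and how often other sets of probes would separate was not tested.

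Genes outside the rule gave a mixed picture. Rpl22l1, a paralog of Rpl22 that Rpl22 protein represses in mouse cells, read 5117, 2078 and 2829 in mock and 7183, 6043 and 5851 in TAT-CRE cells, without overlap (log2 1.05, SE 0.21, limma adjusted p = 0.00295). Rpl22 itself differed by 0.28 (adjusted p = 0.353). Of 6 tested probes of the paralogs outside the rule, this was the only one called, against 6.55% higher and 7.14% lower of all probes. Among 43 tested probes of 21 other TOP messenger RNAs, 2 were higher and 1 lower, against 6.55% and 7.14% of all probes, with a median log2 difference of -0.02. Both called higher belong to Naca, which makes a subunit of the complex that binds nascent chains at the ribosome. They read 1749, 1963 and 2361 and 1954, 1428 and 1846 in mock and 4421, 4285 and 4557 and 3323, 3482 and 3543 in TAT-CRE cells (log2 1.18 and 1.04, adjusted p = 0.000420 and 0.00140). The brightest Naca probe, with values from 24718 to 29867, differed by -0.04 and did not pass (adjusted p = 0.909). The 1 lower probe was of Eif4b, a helper of the initiation helicase (log2 -0.96, adjusted p = 0.0103), and a second Eif4b probe differed by 0.03.

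Ribosome assembly genes, which build ribosomal RNA and fit the proteins onto it, had more lower than higher calls. Of 84 tested probes of 51 genes, 15 probes of 11 genes were lower, against 7.14% of all probes, and 3 were higher, against 6.55%. The median log2 difference was -0.22 (-0.29, -0.25 and -0.24 in mice 1, 2 and 3). The lower calls include dim probes of Gnl3 (-0.78) and Tsr2 (-0.62), brighter in mock and above background on only 3 arrays each. With only probes above background on all 6 arrays, 17 assembly probes were called lower. Without mouse 3 the lower calls numbered 8, and without mouse 1 they numbered 10. Grwd1, a chaperone of ribosomal protein Rpl3, read 992, 1299 and 1153 in mock and 572, 619 and 634 in TAT-CRE cells, without overlap (log2 -1.03, SE 0.18, limma adjusted p = 0.00119), and a second probe fell by 0.95 on the log2 scale (adjusted p = 0.00250). Nop56 of the box C/D particle, which methylates ribosomal RNA, fell by 1.19 (adjusted p = 0.00129). Bccip, a chaperone of Rpl23, was lower at 3 brighter probes (-0.73, -0.60 and -0.56) and higher at a dim one (0.88). All 3 lower calls of Bccip were lost without mouse 3 (adjusted p = 0.137, 0.252 and 0.214), those at -0.60 and -0.56 also without mouse 1 (0.0933 and 0.197), and that at -0.56 also without mouse 2 (0.0506). Ubtf, a transcription factor of RNA polymerase I, was higher at 1 probe (1.02, adjusted p = 0.00153) and differed by -0.29 at another (adjusted p = 0.343).

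**Figure D4:**
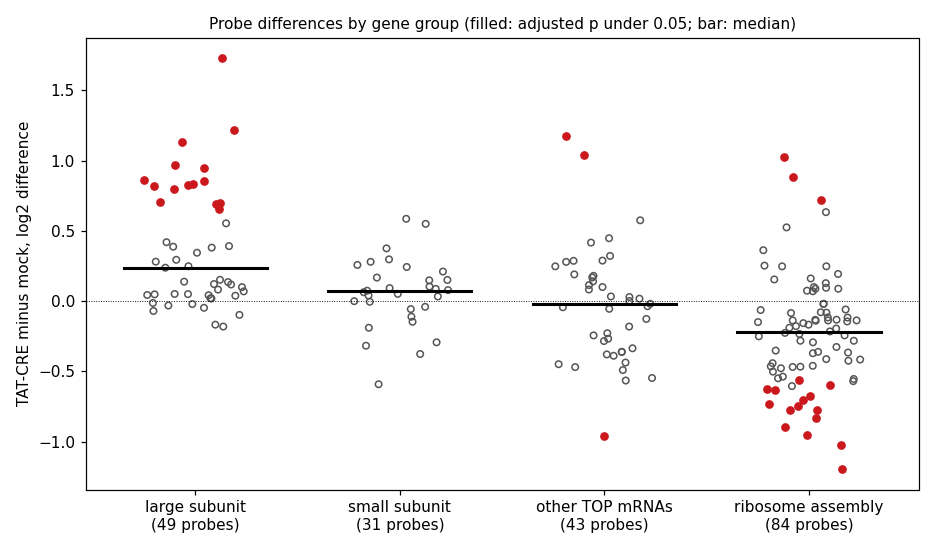
Log2 difference, TAT-CRE minus mock, of the tested probes of large subunit, small subunit, other TOP messenger RNA and ribosome assembly genes, with medians of 0.24, 0.07, -0.02 and -0.22 as bars. Filled points have an adjusted p under 0.05 and lie above 0 in the large subunit, on both sides in the TOP and assembly groups, and are missing in the small subunit.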

How the data were processed

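RNA was read on 6 Illumina arrays, 3 mock and 3 TAT-CRE, with groups and mouse numbers from the sample titles. Per the submitters' processing notes, GenomeStudio 1.8 was used. The deposited table gives a linear intensity for 45281 probes, which the authors had quantile normalized (sorted values of the arrays differ by at most 2.1) and not background-subtracted (medians of 161.4 to 161.5). Quantile normalization fixes each array's overall distribution, so differences are relative to other probes. A second table, of 12 value columns named for no sample, was not used.

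In limma 3.58.1 (R 4.3.3) the values were background-corrected by normexp with an offset of 16, log2-transformed and quantile normalized again. Probes above the 95th percentile of 1504 olfactory and vomeronasal receptor probes on at least 3 arrays were kept, and every probe was tested with the mouse as a block, since both treatments of 1 number came from the same spleen, per the series' design text and the source names. Same-numbered arrays deviated together at r = 0.119, 0.0255 and 0.0539 across probes. Log2 differences, SE and intervals (95%) come from this fit to background-corrected values, and the number of arrays limits their precision. The intensities printed beside them are deposited values, which give smaller differences at dim called probes. The fit was tested on simulated data.

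Probes were named from GEO's platform annotation, whose genome build was not used here. Named genes were the called members, stalk genes, Rpsa, Rpl30, Rpl32, the largest differences, members with disagreeing or near-ceiling probes, and up to 4 genes of each related list. Rps15a, Rps20, Rpl13a and Rps6, outside that rule, were chosen after their values were seen. The members and lists were chosen with earlier results of these data known. Alternatives covered background, normalization, filter, pairing, variance model, array weights, 1 probe per gene and each mouse left out. Sequences are from RefSeq. Figures were drawn with matplotlib 3.10.9.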

Additional observations from a re-analysis of the deposited data

How the results depend on the processing

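The direction of all 15 member calls held under each of the 12 alternatives in which the probe was tested. Without the mouse as a block, 14 member probes were called higher, 13 of them among the 15, and Rpl17 and 1 Rpl21 probe were lost. With no filter on dim probes, which tests 45281 probes, 7 were called higher, all of the large subunit, 6 of them among the 15 and the other of Rpl37. Over all probes 1.10% were called higher in that setting, against 6.55% in the main fit. With 1 probe per gene 6 were called, 5 of them among the 15 and the other of Rpl13a, and 8.78% of all probes were called higher. Leaving out each mouse gave 11 to 15 higher and 0 to 1 lower member probes, 11 to 14 higher large subunit probes and 0 to 3 called small subunit probes, which were Rps13, Rps15a and Rps20. Of all probes 4.90%, 6.49% and 4.18% were called higher without mouse 1, 2 and 3. Array weights called 2 small subunit probes and 1 member lower (Rps13). An intensity trend called 19 member probes higher, against 7.38% of all probes. Among them were 1 small subunit probe (Rps6) and bright probes of Rpl23 and Rpl34. The large subunit median was 0.12 with 1 probe per gene and 0.12 to 0.22 with a mouse left out. The list alternatives were added after seeing the data. Ribosome assembly probes called lower numbered 5 without the filter and 8 to 16 with a mouse left out, and 1 was higher with 1 probe per gene. TOP probes called higher numbered 2 to 4 with a mouse left out and 0 with 1 probe per gene. Those called lower numbered 4 without background correction or with the trend, 2 with array weights, 1 to 4 with a mouse left out, and 0 without the filter or with 1 probe per gene. Signs turned, none of them called, for a bright Rpl27a probe (-0.0083 with array weights, -0.037 to 0.068 with a mouse left out), the dimmer and brighter Rpl30 probes (-0.46 to 0.063 and -0.22 to 0.18 with a mouse left out), the brightest Rpl31 probe (-0.041 to 0.096), the second Eif4b probe (-0.067 with array weights, -0.26 to 0.18 with a mouse left out) and the brightest Naca probe (-0.14 to 0.039). The cause of these shifts was not tested, apart from the larger or smaller number of probes tested under the filter and single-probe settings. For probes near the ceiling the table gives no measure of how far above the scale the signal would run, and for those near background, such as Rpl17, the size rests on the background correction. Other dim called probes also differed less without it. The dimmer Rplp0 probe differed by 1.04 instead of 1.22, and the dimmest Rpl27a probe by 0.63 instead of 0.86.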
